A study of Drosophila melanogaster with 8 samples.

Results

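The genes described here encode the sodium pump and the transporters that clear calcium from the cytoplasm, as measured in Dh44 neurons of the adult fly brain. The list, set by name, holds 7 genes: Atpalpha, nrv1, nrv2 and nrv3 for the sodium pump, and SERCA, PMCA and Calx for calcium transport. A value was matched for 6 of them, among 11773 genes in all, and SERCA, the pump that refills the endoplasmic reticulum with calcium, was not analysed here. Dh44 neurons make diuretic hormone 44, a peptide related to vertebrate corticotropin-releasing factor, and the series concerns the sensing of dietary amino acids. RNA was sequenced in 8 libraries, all of 1 group: brain cells of flies of genotype DH44-GAL4;UAS-mCD8gfp, aged 5 days and fed normal food. The DH44-GAL4 line drives a membrane-bound green fluorescent protein, by which cells were picked, so the libraries hold the cells that this driver marks, together with any RNA drawn up with them.

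The series text describes individually harvested cells and the treatment label describes pooling, so the number of cells per library is not known, and no animal is named for any library. Libraries are therefore described and nothing is tested: every spread given is that between libraries. Fewer cells of a type and less RNA per cell cannot be told apart in such material.

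The sodium pump (Na/K ATPase) is a membrane enzyme of the P-type family that spends ATP to push sodium out and bring potassium in, and it maintains the ion gradients that neurons use for firing. Its alpha subunit is the catalytic chain, and its beta subunit is a glycoprotein needed for assembly and delivery to the membrane. PMCA is a calcium ATPase of the plasma membrane. Calx is a sodium-calcium exchanger, which draws on the sodium gradient built by the pump to expel calcium, and in flies it is known from photoreceptors.

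The libraries differed in content. Summed FPKM, a fragment measure scaled by exon length and by the mapped fragments of a library, ran from 812029 to 935440, and read depth is unknown. Libraries 1, 8 and 3 had the fewest genes at 1 FPKM or more, 2518, 3798 and 4094, whereas the median library had 4855.5. The cell label was checked against markers: all 10 neuronal markers with a value reached 1 FPKM in at least 4 libraries, as did 41.2% of all genes. This count does not set the neuronal list apart, since 13 of 14 photoreceptor, 4 of 4 hemocyte and 5 of 6 fat body markers did so too, against 4 of 10 muscle and 2 of 6 glial markers. The summed neuronal level was lowest in library 8 at 513 FPKM and highest in library 4 at 2106 FPKM. The summed fat body list ran from 14243 to 68432 FPKM, the photoreceptor list from 808 to 7931 FPKM, the hemocyte list from 32.2 to 453 FPKM, the glia list from 46.3 to 278 FPKM and the muscle list from 29.0 to 324 FPKM. Libraries 1 and 8 had the largest fat body sums, and library 8 also had the largest photoreceptor and muscle sums. The part of these markers in the results that follow was not tested beyond the values given beside them.

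Atpalpha and nrv3 were among the more abundant messages of these cells, and nrv2 and Calx were much lower. All 6 measured genes reached 1 FPKM in at least 4 libraries (41.2% of all genes). The sodium pump genes and PMCA did so in all 8 libraries, as did 11.0% of all genes, and Calx did so in 7. By median level the order was nrv3, Atpalpha, PMCA, nrv1, nrv2 and Calx. FPKM is a measure per length, and on that basis these levels are set side by side. The annotation behind the lengths and the evenness of reads along transcripts are unknown. Orders, shares and ratios between genes are therefore approximate. By Dixon's gap criterion no library stood apart from the rest in any of the 6 levels on the FPKM scale, where 21.6% of the genes at 1 FPKM in at least 4 libraries had such a library. On the log2(FPKM + 1) scale, where 12.4% of those genes had one, library 3 stood apart for nrv1, library 8 for PMCA and library 1 for Calx, each as the lowest.

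**Figure D1:**
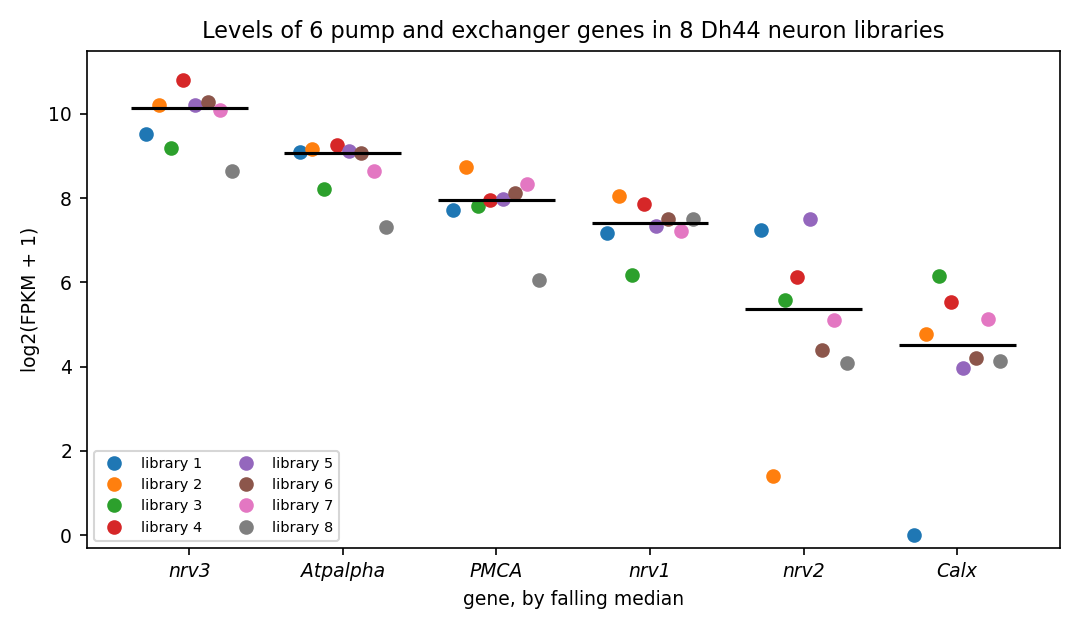
Levels of the 6 genes, as log2(FPKM + 1), in each of the 8 libraries (coloured points, left to right in library order), with the median as a black bar. Library 8 lies lowest for nrv3, Atpalpha and PMCA and library 3 lies lowest for nrv1, while nrv2 spreads between 1.66 FPKM (library 2) and 181 FPKM (library 5), and Calx is listed at 0 in library 1.

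Atpalpha, the catalytic alpha subunit, was at 544, 571, 295, 617, 555, 537, 400 and 160 FPKM in libraries 1 to 8. The median was 540 FPKM (mean 460 ± 160, SD, n = 8 libraries), which ranked 206 among the medians of all genes. Of the 8 libraries, 5 lay between 537 and 617 FPKM, and libraries 7, 3 and 8 were lower. In assembly BDGP6.54 the gene (FBgn0002921) occupies bases 20948714 to 20976239 of the plus strand of chromosome 3R, with 11 annotated transcripts and 6680 bp of exon.

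The beta subunit nrv3, which is known from the nervous system, had the highest level of the 6 genes in every library. It was at 730, 1184, 585, 1796, 1188, 1238, 1089 and 400 FPKM in libraries 1 to 8. The median of 1136 FPKM (mean 1026 ± 442, SD, n = 8) ranked 124 among the medians of all genes, and in library 4 the gene ranked 78. Library 4 stood highest and libraries 8, 3 and 1 lowest. nrv3 (FBgn0032946) occupies bases 21380000 to 21393319 of the plus strand of chromosome 2L.

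Another beta subunit, nrv1, was lower. Its levels were 144, 264, 71.8, 233, 161, 179, 147 and 182 FPKM in libraries 1 to 8, with a median of 170 FPKM (mean 173 ± 58.5, SD, n = 8). It was lowest in library 3, and unlike Atpalpha and nrv3 it was not low in library 8. Its range overlapped that of Atpalpha, since Atpalpha was at 160 FPKM in library 8.

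The remaining beta subunit, nrv2, was the most uneven of the sodium pump genes. nrv2 is known for its part in septate junctions, and its promoter drives a widely used glial driver line. It was at 151, 1.66, 47.0, 68.8, 181, 20.2, 33.3 and 16.1 FPKM in libraries 1 to 8, a median of 40.2 FPKM (mean 64.9 ± 66.1, SD, n = 8). Its highest value, in library 5, was 109 times its lowest, in library 2, whereas for Atpalpha, nrv1 and nrv3 that ratio was 3.87, 3.68 and 4.49. Libraries 5 and 1 were high and library 2 was lowest.

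Glial markers are given beside nrv2 because of its use as a glial gene. Of 6 glial markers with a value, 2 reached 1 FPKM in at least 4 libraries: Gs2, a glutamine synthetase, and Eaat1, a glutamate transporter. The glial factor repo was listed at 0 in libraries 1, 3, 5 and 8 and was at most 2.87 FPKM in the others. The summed glial markers were 68.9 and 70.3 FPKM in libraries 1 and 5, where nrv2 was highest, 278 FPKM in library 3 and 244 FPKM in library 8. These sums rest largely on 1 gene, since Gs2 made up 94.1% of that in library 3 and 69.6% of that in library 8. Eaat1 was highest in library 8 at 73.1 FPKM, followed by libraries 1, 6 and 5 at 57.4, 27.2 and 24.1 FPKM. Gs2 was lowest in library 1 at 11.6 FPKM and stood at 45.8 FPKM in library 5. The markers moody and wrapper were listed at 0 in libraries 1 and 5. The median difference of the glial list from the other libraries was highest in library 6, at 1.32 on the log2(FPKM + 1) scale. The part of glial RNA in the nrv2 values was not tested.

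nrv1 and nrv2 are neighbours on chromosome 2L, both on the minus strand. nrv1 (FBgn0015776) spans 6778555 to 6786861 and nrv2 (FBgn0015777) spans 6789770 to 6798862, with 2908 bases and no annotated gene between them. Their levels differed in order between libraries: nrv1 was above nrv2 in 6 libraries and below it in libraries 1 and 5.

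Within the beta subunits, nrv3 held most of the signal. Its share of the summed FPKM of nrv1, nrv2 and nrv3 had a median of 82.4% (66.9% to 86.1%, SD 7.26, n = 8). The median share of nrv1 was 12.0% (10.2% to 30.4%, SD 6.82), and that of nrv2 was 2.99% (0.114% to 14.7%, SD 5.25). Such shares do not depend on how a library is scaled. Library 8 differed in make-up: nrv1 held 30.4% there and at most 18.2% in the other libraries, and nrv3 held its smallest share.

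Summed beta FPKM was above Atpalpha FPKM in every library, with the limit on comparing unlike genes given above. The summed beta FPKM was 2.72 times that of Atpalpha at the median (1.89 in library 1 to 3.75 in library 8, SD 0.597, n = 8). nrv3 alone exceeded Atpalpha in 8 of 8 libraries, by a median ratio of 2.22 (1.34 to 2.91). nrv1 reached 0.351 of Atpalpha at the median and exceeded it only in library 8, where the ratio was 1.14. Together the 4 sodium pump genes made up between 0.0810% of summed FPKM in library 8 and 0.292% in library 4.

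**Figure D2:**
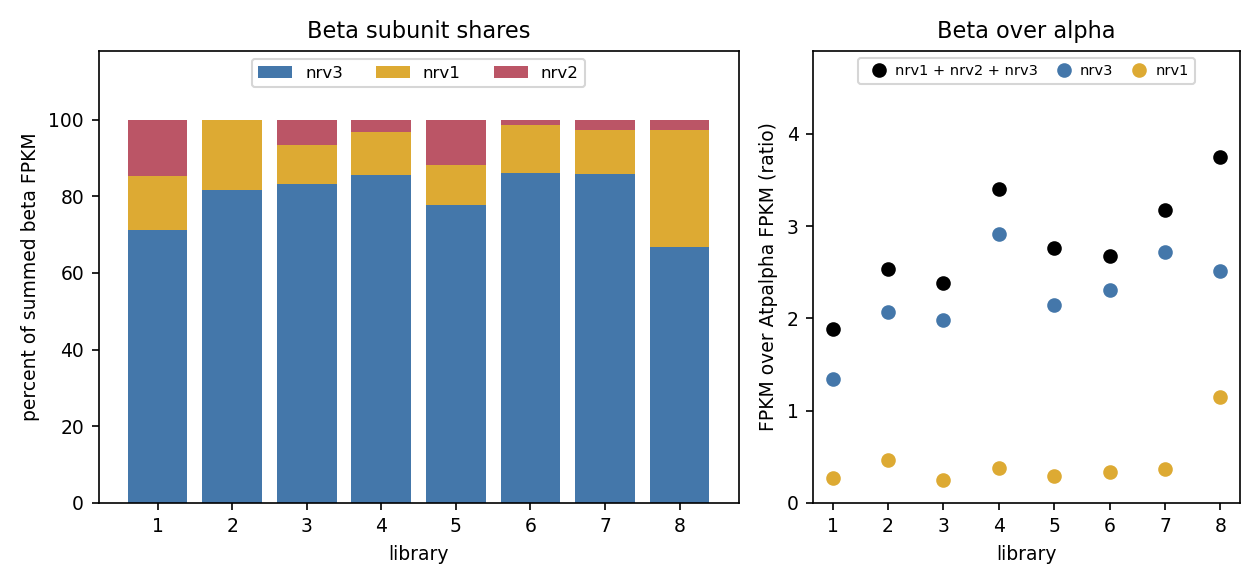
Left, the share of each beta subunit gene in the summed FPKM of nrv1, nrv2 and nrv3 (percent, stacked bars, 1 bar per library). Right, the ratio of beta FPKM to Atpalpha FPKM in each library for the 3 genes together, for nrv3 and for nrv1. nrv3 holds 66.9% to 86.1% in all libraries, nrv2 shows mainly in libraries 1 and 5, and nrv1 stands out in library 8 in both panels.

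Other genes of calcium transport are in the calcium handling list given below. Of PMCA and Calx, the calcium transport members with a value, the calcium ATPase PMCA was the higher. It was at 208, 429, 224, 247, 251, 277, 324 and 65.8 FPKM in libraries 1 to 8, with a median of 249 FPKM (mean 253 ± 103, SD, n = 8) which ranked 388 among the medians of all genes. Library 2 was highest and library 8 lowest. Atpalpha exceeded PMCA in 8 of 8 libraries, by a median ratio of 2.08 (1.24 to 2.61). PMCA was above nrv1 in 7 libraries and below it in library 8.

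PMCA values carry an uncertainty that the other 5 genes do not. The gene (FBgn0259214) occupies bases 328193 to 358917 of the minus strand of chromosome 4, and 3107 of its 7665 exon bases overlap exons of Rnf11 on the opposite strand. No source used here says whether counting used strand, and without it reads of both genes cannot be told apart. Rnf11 had a median of 108 FPKM (63.3 to 204) and was highest in library 8, where PMCA was lowest. The exons of Atpalpha, nrv1, nrv2, nrv3 and Calx overlap no other gene in that annotation.

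The exchanger Calx was the lowest and, with nrv2, the least even gene. It was listed at 0 in library 1 and stood at 26.5, 69.8, 45.5, 14.7, 17.4, 34.1 and 16.4 FPKM in libraries 2 to 8, a median of 21.9 FPKM. Library 3 was highest, followed by libraries 4 and 7. A listed 0 is not read as absence, since 9094 genes were listed at 0 in library 1. The muscle markers Act57B (49.1 FPKM) and wupA (60.8 FPKM), an actin and troponin I, were also at their highest in library 3, as were Mhc and bt at lower levels. The other muscle markers were highest elsewhere: Mlc2 and Act88F in library 2, up and sls in library 6, and Mlc1 and Tm2 in library 8. The median difference of the muscle list from the other libraries was highest in library 3, at 0.95 on the log2(FPKM + 1) scale. The muscle sum was highest in library 8 at 324 FPKM, of which Mlc1, a myosin light chain, made up 80.8%, and the median difference there was 0.06. The photoreceptor list, of a cell type where Calx is known, had its largest sum in library 8, of which the opsin gene Rh5 made up 50.4%. Its median difference was highest in library 7 at 1.03, where Calx was at 34.1 FPKM, with library 8 next. The part of either cell type in the Calx values was not tested.

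Calx (FBgn0013995) lies directly behind Atpalpha on chromosome 3R, from 20978183 to 21015613 on the same strand, with 1943 bases and no annotated gene between them. The neighbours were not alike in level. Atpalpha was above Calx in every library, and in library 3, where Calx was highest, Atpalpha was at its second lowest. PMCA made up a median of 92.3% of the summed FPKM of PMCA and Calx (76.2% in library 3 to 100% in library 1, SD 8.19, n = 8). nrv2 and Calx, the last neighbours in the order of medians, did not separate: nrv2 was higher in 4 libraries and Calx in the other 4.

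The SD was smaller than the running median of genes of similar level for 5 of the 6 genes, and nrv3 was the exception. The SD of log2(FPKM + 1) over the 8 libraries was 0.67 for Atpalpha, 0.56 for nrv1, 0.70 for nrv3 and 0.79 for PMCA. Beside these, the running median of the SD over genes nearest in mean level was 0.82, 1.09, 0.65 and 0.93 respectively. For nrv2 and Calx the SD was larger, 1.95 and 1.87, beside 2.15 and 2.28 for genes of their lower level. nrv1 was the most even for its level: 7.96% of the genes around it had a smaller SD. Single libraries set part of this spread. The SD was 0.38 for Atpalpha, 0.35 for PMCA and 0.53 for nrv3 without library 8. It was 0.33 for nrv1 without library 3, 1.32 for nrv2 without library 2 and 0.81 for Calx without library 1.

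Library 8 was low for most of these genes, as it was for most detected genes. On the log2(FPKM + 1) scale it lay below the median of the other 7 libraries for 5 of 6 genes, and for 64.3% of all genes at 1 FPKM or more in at least 4 libraries. The differences were -1.76 for Atpalpha, -1.56 for nrv3, -1.91 for PMCA, -1.49 for nrv2 and -0.66 for Calx. Over those detected genes the median difference was -1.17, and over the neuronal list -2.06. nrv1 differed by 0.18. None of the 6 genes was extreme, since between 39.4% (PMCA) and 67.1% (nrv1) of the detected genes had a lower difference.

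Library 1 showed another pattern. There 4 of 6 genes were below the other libraries, as were 72.7% of the detected genes, whose median difference was -2.11. Atpalpha differed by 0.02, nrv1 by -0.31, PMCA by -0.26 and nrv3 by -0.70, so all 4 differences lay above that of the median gene. They were not extreme, since between 67.1% (nrv3) and 72.9% (Atpalpha) of the detected genes had a lower difference. These 4 genes are more abundant than most detected genes, and genes of similar level were not set beside them here. nrv2 was higher by 2.15, and Calx, listed at 0, differed by -4.78. In library 3, 4 of 6 genes were below the others, as were 55.5% of the detected genes, whose median difference was -0.27. There nrv1 was at -1.31, nrv3 at -1.02 and Atpalpha at -0.88. These were not extreme either, since 33.1%, 38.2% and 40.5% of the detected genes, respectively, had a lower difference. The neuronal list had a median difference of 0.13, and Calx was higher by 1.95.

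**Figure D3:**
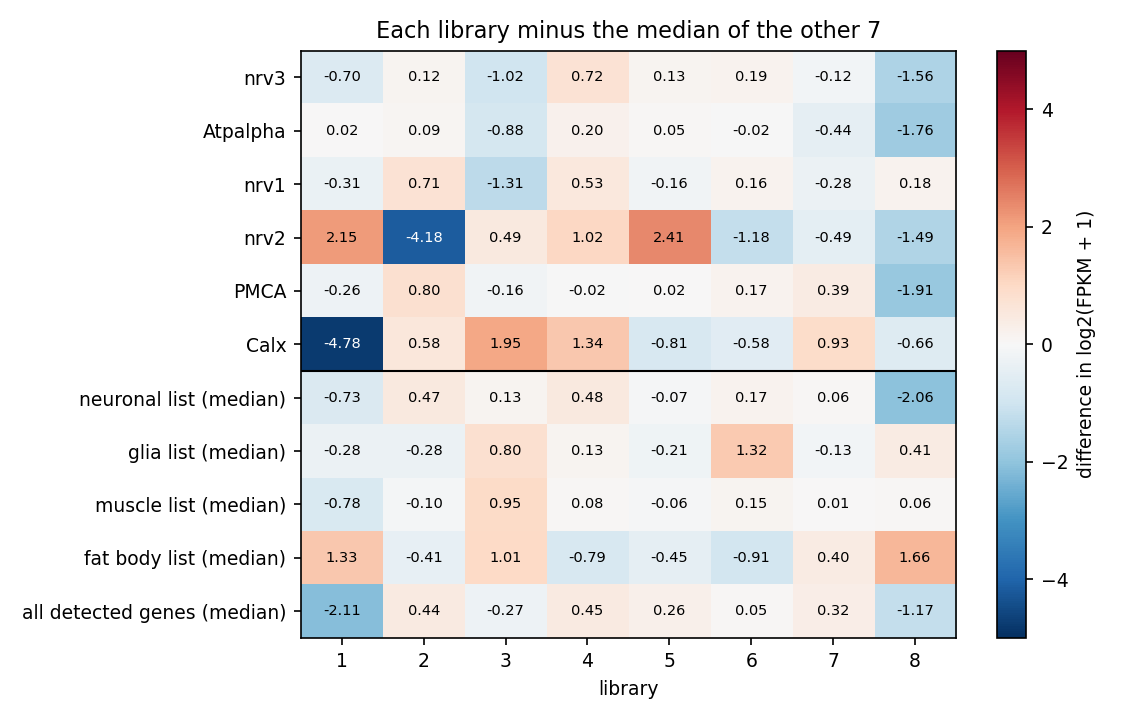
Difference in log2(FPKM + 1) between each library and the median of the other 7, for the 6 genes (above the line) and as medians of marker lists and of all genes at 1 FPKM or more in at least 4 libraries (below the line). Blue is lower and red is higher. Library 8 is blue for Atpalpha, nrv3, PMCA, nrv2 and Calx, as it is for the neuronal list and for all detected genes. nrv2 is red in libraries 1 and 5, and Calx is red in library 3.

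Across libraries, Atpalpha and nrv3 had similar patterns. Their Pearson correlation of log2(FPKM + 1) was 0.87 (Spearman 0.79, n = 8 libraries), and 3.49% of 3151 other genes of mean 3 or more on that scale had a higher correlation with Atpalpha. The median correlation with such genes was 0.17 for Atpalpha and 0.33 for nrv3. For Atpalpha with nrv3 the value was 0.73 without library 8 (n = 7) and 0.92 without libraries 1 and 8 (n = 6).

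The likeness of PMCA to both genes rested on library 8. Its correlation was 0.82 with Atpalpha and 0.76 with nrv3 over 8 libraries. It was 0.19 and 0.39 without library 8, and 0.32 and 0.23 without libraries 1 and 8. The Spearman correlation of Atpalpha and PMCA was 0.43.

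nrv1 showed the opposite dependence. Its correlation with Atpalpha was 0.36 over 8 libraries and 0.93 without libraries 1 and 8. Leaving out 1 library, it was 0.89 without library 8, 0.40 without library 1 and 0.18 without library 3. Library 3, where both genes were low, was among the 6 libraries kept for the value of 0.93. Of the 15 pairs, the 12 outside Atpalpha, nrv3 and PMCA ranged from -0.43 for nrv1 with nrv2 to 0.51 for nrv1 with nrv3. Without libraries 1 and 8 the same 12 ranged from -0.85 for nrv2 with PMCA to that 0.93, with 0.89 for nrv1 with nrv3 and -0.63 for Atpalpha with Calx, and 3 of them had the other sign. Correlations over so few libraries are descriptions only.

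**Figure D4:**
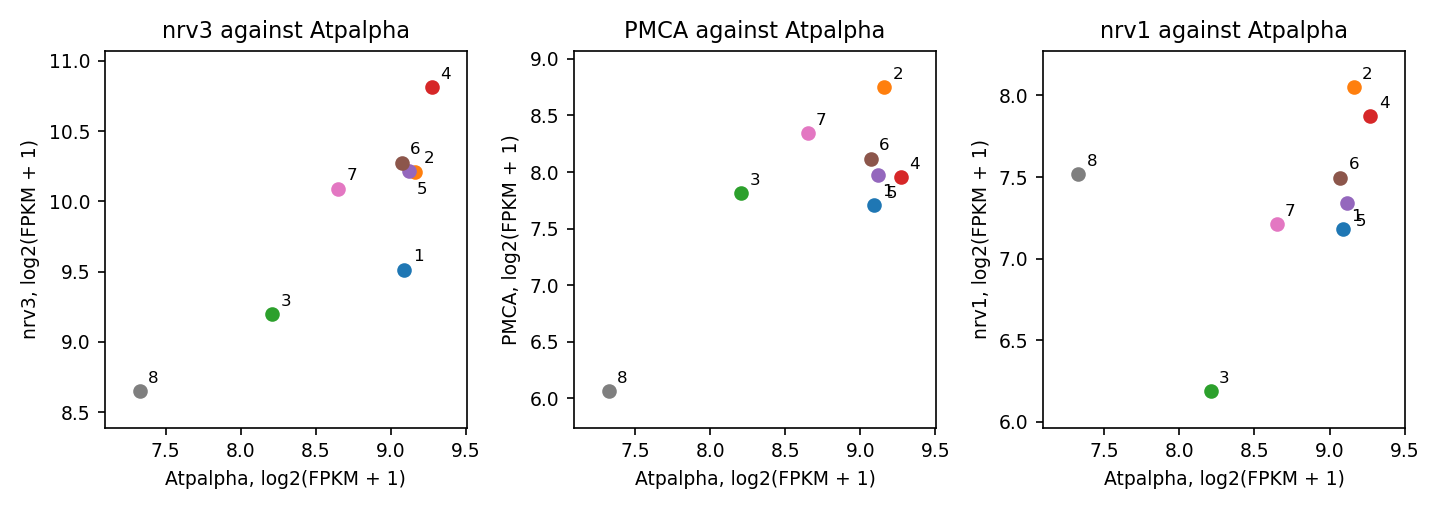
nrv3, PMCA and nrv1 against Atpalpha, all as log2(FPKM + 1), with 1 numbered point per library. In the first panel the points rise together; in the second the rise rests on library 8 (0.82 with it and 0.19 without it); in the third library 8 lies away from the others.

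The genes with the pattern most like each of the 6 were taken from those 3151 genes by Pearson correlation over the 8 libraries. For Atpalpha they were Sap47, a synapse-associated protein gene (0.97), Gpb5, a glycoprotein hormone subunit (0.97), and mts, the catalytic subunit of protein phosphatase 2A (0.97). For nrv3 they were Sec61beta, a subunit of the protein translocation channel (0.97), CG3760 (0.97) and lncRNA:alphagamma-element:CR32865 (0.96). For nrv1 they were or, a subunit of an adaptor protein complex (0.94), CG9328 (0.93) and CG13887 (0.92).

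For nrv2 the values were lower: NitFhit (0.91), the steroid-binding protein gene MSBP (0.89) and atl, a GTPase of the endoplasmic reticulum (0.86). For PMCA they were CG13506 (0.97), Dp1, an RNA-binding protein gene (0.96), and CalpA, a calcium-dependent protease (0.96). For Calx they were Act42A, a cytoplasmic actin (0.996), Pif1A (0.986) and CG3107 (0.979). The highest of 3151 correlations over 8 points is large by selection. Pif1A shares 8528 of 9951 exon bp with Pif1B on the same strand, and lncRNA:alphagamma-element:CR32865 overlaps several transposon features on the same strand, so these values are uncertain. The other overlaps were smaller and add less doubt. CG3107 overlaps a transposon feature by 83 of 4128 bp. Antisense genes overlap CG13506 by 140 of 2977 bp, atl by 90 of 3349 bp, CG3760 by 64 of 1258 bp and or by 3 of 823 bp. Without libraries 1 and 8, the correlations of Dp1 and CalpA with PMCA were 0.78 and 0.76, and those of the other 16 genes lay between 0.89 and 0.99. That setting keeps libraries 2 and 3, on which some values rested in part. Without library 2, nrv2 was at 0.59 with atl, 0.72 with MSBP and 0.86 with NitFhit. Without library 3, nrv1 was at 0.69 with CG13887, 0.74 with CG9328 and 0.82 with or.

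Other genes of ion transport were mostly lower. Relatives of the sodium pump subunits were nearly absent from these values: of 4 with a value, JYalpha, CG5250 and CG11703 were listed at 0 in all 8 libraries, as were 30.1% of all genes, and CG33310 reached 3.96 FPKM in library 4 alone. Of 19 calcium handling genes listed, 7 were not analysed here, and of the 12 with a value 10 reached 1 FPKM in at least 4 libraries, with a list median of 34.6 FPKM. Cam, the calcium sensor calmodulin, had the highest median at 1316 FPKM (475 to 2192). Cbp53E, a calcium-binding buffer protein, followed at 272 FPKM (18.8 to 683). Both were lowest in library 8 and highest in library 4, as were Atpalpha, nrv3 and the summed neuronal markers. How many of all genes share these extremes was not counted. EMRE, a part of the mitochondrial calcium uniporter, had a median of 240 FPKM and was listed at 0 in libraries 1 and 8, and Cnx99A, the chaperone calnexin, had 204 FPKM. CG1090, a predicted exchanger, was at 53.2 FPKM. Exons of Cam overlap lncRNA:CR43900 on the same strand, and those of Cbp53E and CG1090 overlap features on the opposite strand.

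The measured genes of sodium entry and the other transporters had lower list medians. Of 12 listed sodium channel and accessory genes, 3 were not analysed here, so the list does not cover every route, and of the 9 with a value 7 were detected by the same rule, with a list median of 11.7 FPKM. Teh2 and Teh1, relatives of the sodium channel subunit gene tipE, had medians of 58.5 and 32.0 FPKM. They were followed by Ih, a hyperpolarisation-activated channel (27.3 FPKM), the channel gene NaCP60E (14.6 FPKM) and unc79, an accessory gene of the sodium leak channel (11.7 FPKM). Exons of Teh2 overlap Teh3 on the same strand and those of NaCP60E and unc79 overlap pain and Polr2M on the opposite strand.

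Cotransporters and exchangers counted 5 detected of 7, with a list median of 12.0 FPKM that became 23.0 FPKM without libraries 1 and 8. The sodium-proton exchanger gene Nhe3 led at 112 FPKM and was listed at 0 in library 3. Nhe1 (26.2 FPKM), the potassium-chloride cotransporter gene kcc (26.0 FPKM), Nhe2 (12.0 FPKM) and Ndae1 (1.75 FPKM) followed. Exons of Nhe1 and kcc overlap antisense genes, and those of Nhe2 overlap CG46307 on the same strand.

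Of 6 other P-type ATPases with a value, 5 were detected, led by the lipid flippase gene ATP8A (59.8 FPKM) and anne (51.1 FPKM). CG6230 (11.7 FPKM), the copper pump gene ATP7 (5.81 FPKM) and CG33298 (1.40 FPKM) were lower. Exons of CG6230 and ATP7 overlap Gr32a and Nrd1 on the opposite strand. Atpalpha and PMCA, which belong to the same enzyme family, had medians of 540 and 249 FPKM. The list median of these 6 was 8.73 FPKM, and that of all 4846 genes at 1 FPKM or more in at least 4 libraries was 19.7 FPKM.

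**Figure D5:**
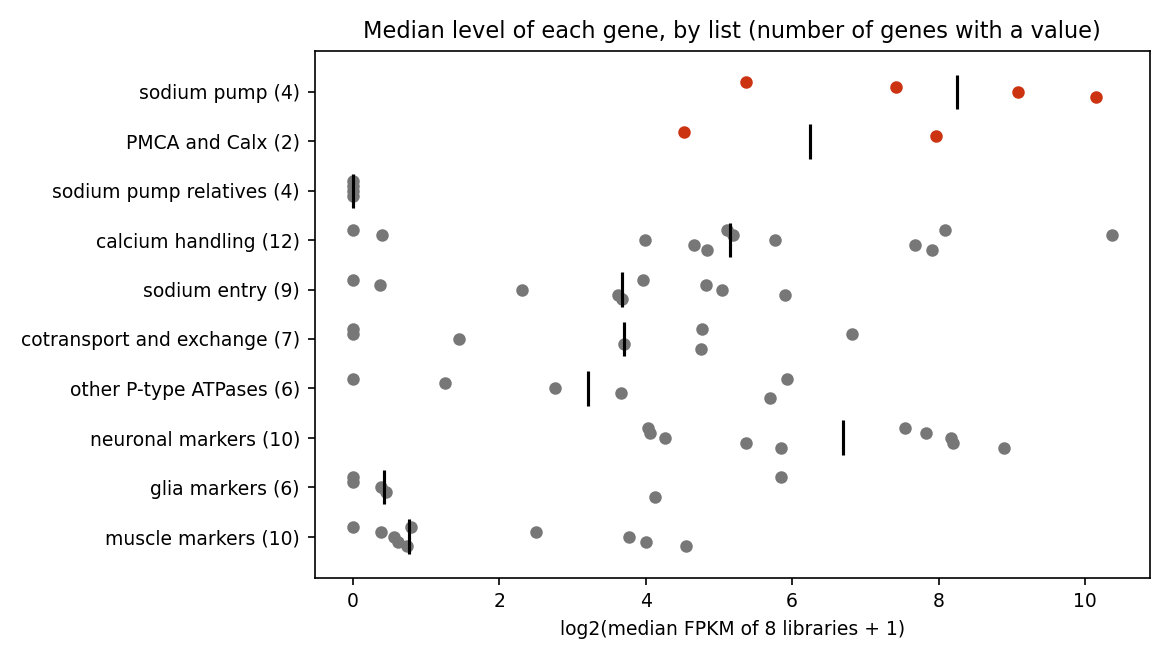
Median level of each gene over the 8 libraries, as log2(median FPKM + 1), with 1 point per gene and a bar at the median of each list; the number of genes with a value is in brackets. The sodium pump genes and PMCA with Calx are in red. The sodium pump relatives lie at 0, and outside the red points Cam of the calcium handling list lies furthest to the right.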

How the data were processed

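The authors deposited 1 FPKM value per gene and library, normalised by exon length and mapped fragments. Per the series text, reads were cleaned of adaptors, primers and low-quality sequence and mapped to the Drosophila genome, and the submitters' processing notes name TopHat. Versions, build, annotation and use of strand: not given in the sources used here. A value depends on what else its library holds. Depth is unknown, so no counting interval is given.

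Of 11773 identifiers, 11646 were matched to a symbol by the supplied table. TEH1 to TEH4 and CG42321 were matched as Teh1 to Teh4 and ATP8A. Coordinates, exons and overlaps come from Ensembl release 115 (BDGP6.54), which may not be the build used for the values.

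Values were described in Python 3.11.15 with pandas 2.3.3 and numpy 2.4.6: medians, ranges, shares within a library, ranks, and log2(FPKM + 1), with a pseudocount of 1. Detection was 1 FPKM or more in at least 4 libraries. The correlation code was tested on simulated data. With 1 group and no animal named, no test was made. The members and lists were chosen with earlier results of these data known. The genes named were the members, up to 5 detected genes of each list by median with that of the highest single value, and the 3 genes most correlated with each member. Of the marker lists, only the genes touching a result are named. The design held SERCA in the calcium shares, which were computed from PMCA and Calx.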

Additional observations from a re-analysis of the deposited data

Results flagged for a closer look

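In 24 measures (the levels of the 6 genes on the FPKM and on the log2(FPKM + 1) scale, and 12 shares or ratios), the highest and lowest library were compared with the rest by the gap to the nearest library relative to the range, against Dixon's 95% critical value for 8 libraries. Chance flags about 1 in 20 groups under a normal distribution, and 21.6% of the 4846 detected genes stood apart on the FPKM scale and 12.4% on the log2 scale. On the FPKM scale none of the 6 levels did. On the log2(FPKM + 1) scale nrv1 stood apart in library 3 at 6.19 (gap 0.534 of the range), PMCA in library 8 at 6.06 (gap 0.613) and Calx in library 1 at 0 (gap 0.647), each as the lowest. The share of nrv1 in the summed beta FPKM stood apart in library 8 at 30.4% (gap 0.604 of the range). The ratio of nrv1 to Atpalpha stood apart in the same library at 1.14 (gap 0.756 of the range). Both ratios rest on 1 library, in which Atpalpha and nrv3 were lowest while nrv1, at 182 FPKM, was near its median of 170 FPKM. The summed neuronal markers were lowest there at 513 FPKM and the fat body sum highest at 68432 FPKM; their part in this was not tested.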

How the results depend on the processing

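Rescaling each library without its 10 most abundant genes shrinks the total by construction. It moved the medians to 873 (Atpalpha), 260 (nrv1), 1775 (nrv3) and 384 (PMCA), in units rescaled to a sum of 1000000. Those of nrv2 and Calx became 65.8 and 36.1, changes smaller than the SD of these genes between libraries, which is wide relative to their level. Without ribosomal protein genes Atpalpha was at 756 and nrv1 at 243 in such units. The SD of log2 values without libraries 1 and 8 was 0.41 for Atpalpha, 0.34 for PMCA and 0.82 for Calx, and that of Calx was 2.97 with a pseudocount of 0.1 and 0.90 with 10. With 0.1, Calx in library 1 differed from the others by -8.06, against -4.78 with a pseudocount of 1. Leaving out 1 library at a time, the SD ranged from 0.38 to 0.72 (Atpalpha), 0.33 to 0.61 (nrv1), 1.32 to 2.11 (nrv2), 0.53 to 0.75 (nrv3), 0.35 to 0.85 (PMCA) and 0.81 to 2.02 (Calx). The correlation of PMCA ranged from 0.19 to 0.86 with Atpalpha and from 0.39 to 0.87 with nrv3, the lowest without library 8. It was 0.43 (Spearman) and 0.32 (without libraries 1 and 8) with Atpalpha, and 0.23 without libraries 1 and 8 with nrv3. For the 12 other pairs, the sign turned without libraries 1 and 8 for Atpalpha with nrv2 (-0.12), nrv3 with Calx (-0.43) and PMCA with Calx (-0.28), and by Spearman for nrv1 with Calx (0.024). With 1 library left out the correlation crossed 0 for Atpalpha with nrv2 (-0.036 to 0.62) and with Calx (-0.39 to 0.030), nrv1 with PMCA (-0.13 to 0.58) and with Calx (-0.49 to 0.54), and nrv2 with nrv3 (-0.17 to 0.32), PMCA (-0.88 to 0.38) and Calx (-0.45 to 0.070). Under settings other than leaving out 1 library, 203 of 248 values stayed within a set limit, and 359 of 400 did so with 1 library left out. The limit was the spread between libraries or, for SDs, correlations, the count of members detected and list medians, 1.5 times. These counts say little about stability. Correlations of the 18 genes named for a high correlation made up 90 and 144 of them, and for these the limit was wide. Medians with 1 of 8 libraries left out can hardly pass the spread between libraries. No value outside the 12 other pairs changed sign. Leaving out 1 library for the SDs and correlations, leaving out libraries 1 and 8 for the list medians, and the log2 scale for the gap of a library, were chosen after seeing the data. No paired analysis was possible because there is 1 group. Unknown depth limits what a listed 0 can show.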
